A study of Mus musculus with 16 samples.

Results

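The 7 genes described here encode intermediate filament proteins of the cytoplasm and of the nucleus, and were chosen by name: Des (desmin), Vim (vimentin), Nes (nestin), Synm (synemin), Lmna (lamin A/C), Lmnb1 (lamin B1) and Lmnb2 (lamin B2). They are 7 of the 24411 genes in the count table, and all 7 passed the filter on low counts in each comparison. The 16 RNA-seq libraries come from mouse muscle stem cells (MuSCs) and form 4 groups of 4 libraries, control and TRF2 MuSC-cKO, each from uninjured muscle and at 3 days postinjury (3 DPI). TRF2, encoded by Terf2, is a shelterin protein that protects telomeres. In TRF2 MuSC-cKO mice, on a C57BL/6 background, floxed Terf2 is removed by a tamoxifen-inducible Cre (CreERT2) expressed from Pax7, so deletion is limited to cells that used the Pax7 promoter at the time of tamoxifen. Tamoxifen was begun in young adults, and the labels and methods give no age at cell sorting for these libraries. The labels call the controls wild type and do not say whether they carried the Cre or a floxed allele or received tamoxifen. Injury was made by injecting 10 µl of notexin, a snake toxin that destroys muscle fibers, into the tibialis anterior muscle. Cells were sorted as negative for CD45, CD31, CD11b and Sca1 and positive for α7-integrin and VCAM (or CD34).

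Intermediate filaments are rope-like polymers that give cells and nuclei mechanical strength. Desmin is the main filament of muscle and ties the contractile apparatus of a fiber to its membrane and nuclei, while vimentin and nestin are made in mesenchymal and in dividing or migrating progenitor cells, including activated myogenic cells. Synemin builds filaments only together with desmin or vimentin. Lamins form the meshwork under the inner nuclear membrane, in which A-type lamins come from Lmna and the B-type lamins, which stay attached to the membrane by a farnesyl group, come from Lmnb1 and Lmnb2. Vimentin is also abundant in macrophages, fibroblasts and endothelial cells.

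The 250 bases before the RefSeq start sites of Des, Synm and Lmnb2 on GRCm38.p6, which lie outside annotated exons, are shown because Des and Lmnb2 had the 2 lowest genotype estimates at 3 DPI and Synm the only positive one. Capitals mark the E-box letters CANNTG, the short motif that myogenic and other helix-loop-helix factors can bind. The windows lie at chr1:75360042-75360291 on the plus strand for Des, chr7:67759743-67759992 on the minus strand for Synm and chr10:80918246-80918495 on the minus strand for Lmnb2, and each is written 5′ to 3′ toward the start site.
Des: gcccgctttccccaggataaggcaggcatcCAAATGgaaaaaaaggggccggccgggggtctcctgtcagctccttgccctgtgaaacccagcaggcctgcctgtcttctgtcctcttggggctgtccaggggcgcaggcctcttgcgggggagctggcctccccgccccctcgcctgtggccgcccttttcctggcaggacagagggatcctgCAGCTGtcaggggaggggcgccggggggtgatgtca
Synm: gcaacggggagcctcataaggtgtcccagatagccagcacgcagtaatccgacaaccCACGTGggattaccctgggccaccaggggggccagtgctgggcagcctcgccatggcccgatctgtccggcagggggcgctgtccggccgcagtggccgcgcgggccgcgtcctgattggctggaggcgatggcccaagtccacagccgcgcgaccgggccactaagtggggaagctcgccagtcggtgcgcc
Lmnb2: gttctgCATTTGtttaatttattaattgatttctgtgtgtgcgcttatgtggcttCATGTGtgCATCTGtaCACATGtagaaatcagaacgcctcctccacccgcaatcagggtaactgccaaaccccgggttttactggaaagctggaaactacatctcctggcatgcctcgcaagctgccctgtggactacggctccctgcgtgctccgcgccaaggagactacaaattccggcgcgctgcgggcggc

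The Des window holds 2 E-box matches, CAAATG at -220 to -215 and CAGCTG at -36 to -31, counted back from the start site. The Synm window holds 1, CACGTG at -193 to -188, and the Lmnb2 window 4, of which the first starts at -244 and the last ends at -174. No such match was found in the windows of the same length before Vim, Nes and Lmna, and no window of Lmnb1 was used here. These letters are common, since 66.2% of all 32851 RefSeq promoter windows of 250 bases hold at least 1 match on either strand, and the median window holds 1. The letters TATAAA were found before Vim, at -32 to -27, and in 12.4% of all windows. The telomeric repeat TTAGGG was found before Nes, at -248 to -243, and in a second window of Lmnb2, at -205 to -200, and in 9.32% of all windows. That second Lmnb2 window also holds 1 E-box match, CACCTG at -31 to -26. No match overlapped a match to another of these motifs. The stretch that follows the RefSeq start of Des, at 75360292, was not found in a GENCODE transcript, and the GENCODE gene starts at 75360329. Positions in the Des window therefore depend on the start chosen. A match describes the letters only, and no binding was measured.

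The estimated counts of the libraries summed to between 620506 and 1351130. Levels are given as CPM, counts divided by the library's total and scaled once over the 16 libraries by the TMM method. Replicate 3 of the TRF2 MuSC-cKO libraries at 3 DPI stood apart, with 15387 genes detected against at least 19996 in the other 15. Each estimate of the 7 genes that enters it and whose direction or call changed without it, or whose log2 value moved by more than 1.5 times, is also given without it. Terf2 itself was at 76.4 ± 12.4 CPM (mean ± SD, n = 4 in every group) in uninjured control and 45.7 ± 13.3 in uninjured TRF2 MuSC-cKO libraries, a log2 difference of -0.62 (SE 0.27; edgeR adjusted p = 0.199). Terf2 at 3 DPI was at 43.8 ± 6.16 in control libraries and 57.8 ± 28.4 in those labelled TRF2 MuSC-cKO, a log2 difference of 0.44 (SE 0.42; edgeR adjusted p = 0.755), so the genotype at 3 DPI is taken from the label alone. That estimate ran from -0.18 to 0.80 over 22 alternative settings and changed sign in 1. Whether the counted reads lie in the deleted part of Terf2 cannot be read from counts per gene. The labels do not say that the replicates are separate animals, so p-values measure the spread between these samples. The labels also carry a code whose meaning is not given. The uninjured genotypes share no code, so code and genotype cannot be told apart there, whereas 2 libraries of each 3 DPI group share 1. The other 2 libraries of each 3 DPI group have codes that differ between the genotypes. Estimates given within the others therefore cannot tell code from genotype. Each fit within the shared code or within the others holds 2 libraries per group. Within each genotype the codes of uninjured and 3 DPI libraries also differ in part, and no fit of an injury comparison took the code into account.

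Markers of the sorted cells and of other cells changed with injury, and their values stand here because several of the 7 genes are made by more than 1 cell type. The summed level of 9 MuSC markers ran from 3219 to 4737 CPM in uninjured control, 1817 to 2559 in uninjured TRF2 MuSC-cKO, 722 to 1062 in control 3 DPI and 422 to 585 in TRF2 MuSC-cKO 3 DPI libraries. Pax7, the transcription factor that defines MuSCs, was the most abundant of them in uninjured control libraries (1217 ± 313 CPM), followed by Chodl (706 ± 104 CPM). The 10 macrophage markers summed to 85.3 to 128 CPM in uninjured control and 129 to 190 in uninjured TRF2 MuSC-cKO libraries, but to 5135 to 6526 in control 3 DPI and 2279 to 6008 in TRF2 MuSC-cKO 3 DPI libraries, although the gate is negative for CD45 and CD11b. Lyz2 and Cd68 were the most abundant, at 2528 ± 285 and 800 ± 168 CPM in control 3 DPI libraries, and no macrophage marker was at 0 in all 4 libraries of a group. In these bulk samples, fewer cells of a type and less RNA per cell cannot be told apart.

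Per kilobase of exon, Des was the most abundant of the 7 in uninjured MuSCs and Vim at 3 DPI. In uninjured control libraries the order was Des (239 CPM per kb), Vim (138), Lmna (67.2), Nes (25.7), Lmnb1 (22.0), Lmnb2 (19.2) and Synm (12.1), where the libraries of Nes and Lmnb1 and those of Lmnb1 and Lmnb2 overlapped and the other neighbours did not. In uninjured TRF2 MuSC-cKO libraries Des (137), Vim (79.2) and Lmna (59.9) again led, followed by Nes (21.8), Synm (14.97), Lmnb2 (10.99) and Lmnb1 (9.42), and only Des and Vim, and Lmna and Nes, were neighbours without overlap. At 3 DPI in control libraries Vim reached 781 CPM per kb, above Lmna (136), Des (99.4), Nes (69.0), Lmnb1 (43.8), Lmnb2 (26.1) and Synm (10.6), and only the neighbours from Lmna through Lmnb1 overlapped. In TRF2 MuSC-cKO libraries at 3 DPI Vim (534) and Lmna (95.9) led without overlap and Nes (39.5), Des (35.4), Lmnb1 (30.7), Synm (18.3) and Lmnb2 (8.15) followed, each overlapping its neighbour. Des, the most abundant in both uninjured groups, was below Vim and Lmna in control 3 DPI and below Nes as well in TRF2 MuSC-cKO 3 DPI libraries.

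**Figure D1:**
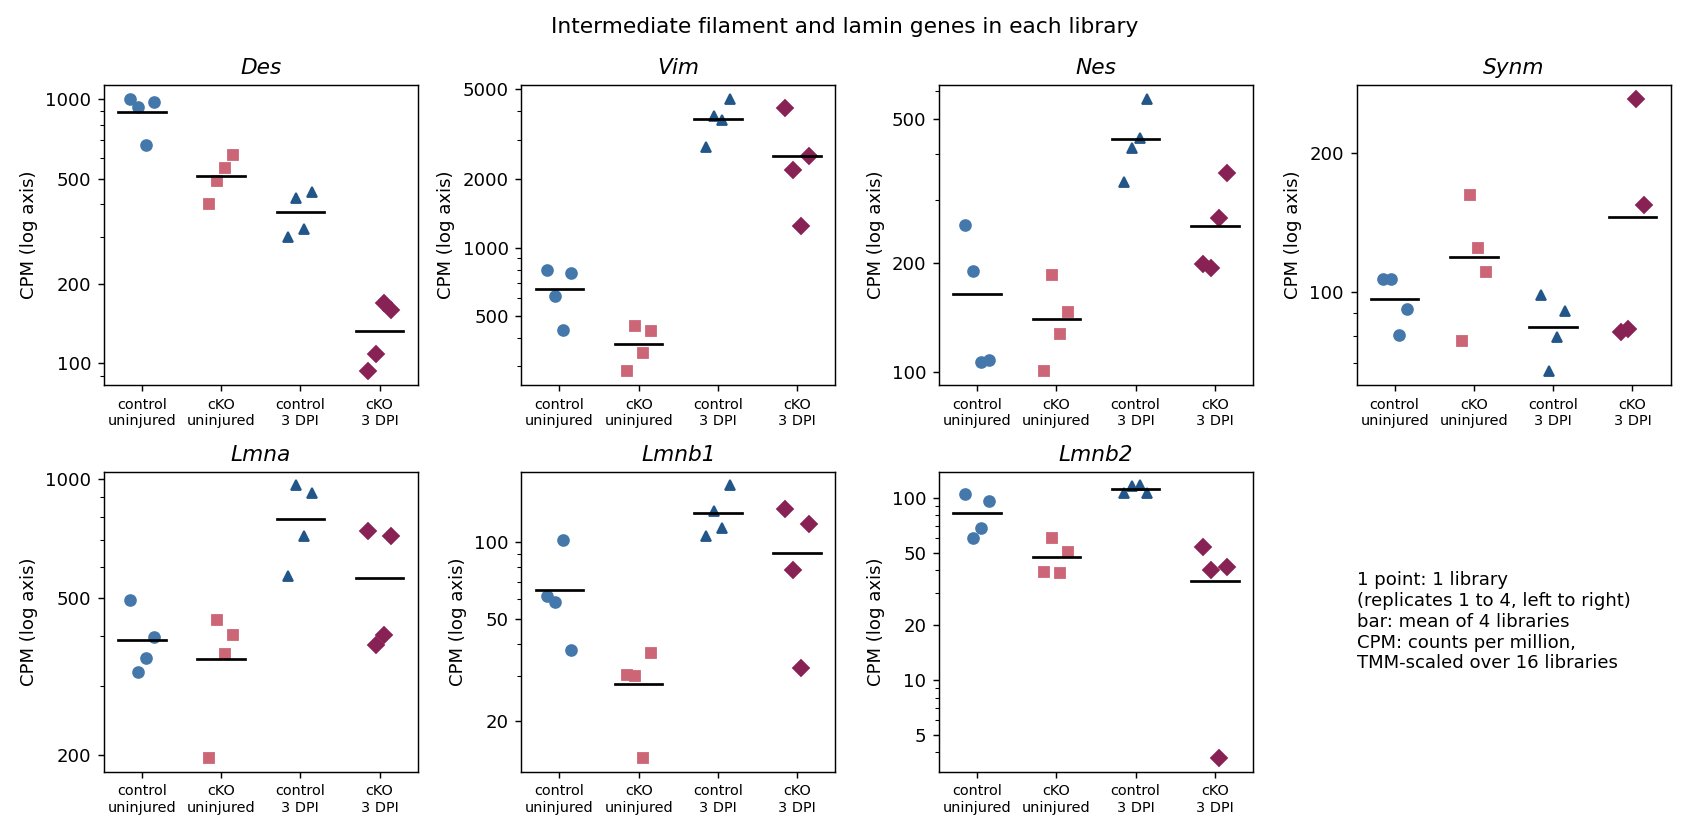
TMM-scaled CPM of each of the 7 genes on log axes, with 1 point per library (replicates 1 to 4 from left to right) and a bar at the mean of each group of 4. Des is lower in both TRF2 MuSC-cKO groups than in the matching control group without overlap, Vim is higher in every 3 DPI library than in every uninjured library, and Lmnb2 at 3 DPI has 1 library at 3.72 CPM.

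Each comparison asks which of these genes differ between 2 groups, fitted over all genes with the quasi-likelihood test of edgeR, and a gene is called where the adjusted p is under 0.02 and the fold change over 1.5. In control MuSCs, injury was followed by calls for 5 of the 7 genes: Vim, Nes, Lmna and Lmnb1 rose and Des fell. Of the 15356 genes tested there, 10.8% were called higher and 9.46% lower, and the median log2 difference was 1.05 over the 7 genes and 0.07 over all genes. In TRF2 MuSC-cKO libraries, Vim rose and Des fell between uninjured and 3 DPI muscle, and the other 5 genes were not called, against 2.43% called higher and 1.61% lower of 14578 genes. The libraries of the 2 groups did not overlap for 6 of the 7 genes in the control comparison, where 24.5% of all genes did not, and for 3 of the 7 in the TRF2 MuSC-cKO comparison, where 14.1% did not.

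Between genotypes, edgeR called none of the 7 genes in either state. In uninjured MuSCs 0.584% of 14048 genes were called higher and 2.63% lower in TRF2 MuSC-cKO libraries. There 4 of the 7 had an unadjusted p under 0.05 (2736 of all genes did). Of the 7, DESeq2 called 2, limma-voom 1 and the robust limma fit 0, against 623, 438 and 299 of the 14048 genes. At 3 DPI edgeR called 0% of 14559 genes in either direction, while 1362 had an unadjusted p under 0.05, and DESeq2 called 22, robust limma 28 and limma-voom 0. Of the 7 genes, 4 had an unadjusted p under 0.05 at 3 DPI and DESeq2 called 1. The estimate was below 0 for 6 of 7 genes in both states, with Synm the exception, and the median was -0.67 in uninjured and -0.51 in 3 DPI libraries against 0.06 and 0.00 over all genes. The libraries of the genotypes did not overlap for 1 of the 7 genes in uninjured muscle, with each comparison scaled on its own, against 11.6% of all genes, and for 2 of the 7 at 3 DPI against 7.65%.

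**Figure D2:**
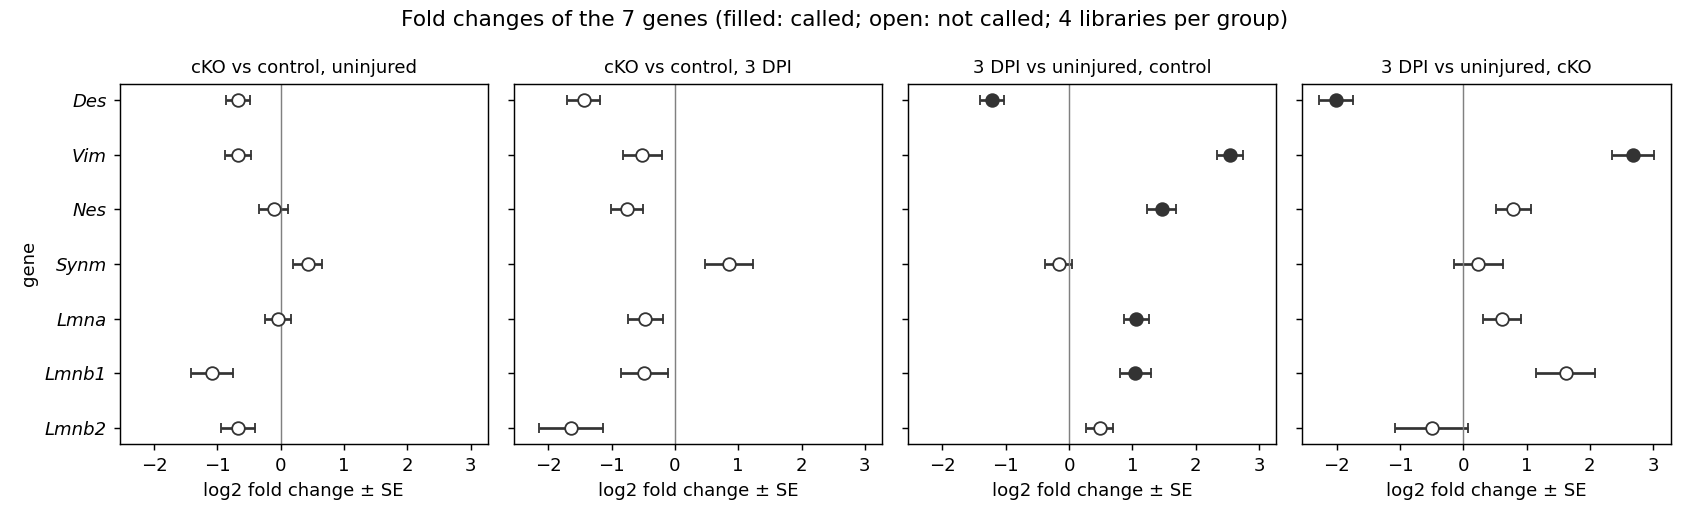
Log2 fold change with its SE for each of the 7 genes in 4 comparisons of 4 against 4 libraries, where filled points are called and open points are not. Both genotype panels hold open points only, and the injury panels hold 5 filled points for control and 2 for TRF2 MuSC-cKO.

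Des, the muscle filament gene (chr1:75360329-75368579, plus strand, exons of 3754 bases), was at 1007, 936, 673 and 978 CPM in the 4 uninjured control libraries and at 402, 489, 548 and 617 in the uninjured TRF2 MuSC-cKO libraries. After injury its level was 301, 424, 323 and 445 CPM in control libraries and 93.4, 108, 170 and 160 in TRF2 MuSC-cKO libraries. Every TRF2 MuSC-cKO library was below every control library of the same state, and the means ± SD went from 898 ± 153 to 514 ± 91.0 CPM in uninjured and from 373 ± 71.9 to 133 ± 37.6 at 3 DPI. The mean was 1.75-fold higher in control than in TRF2 MuSC-cKO libraries in uninjured muscle and 2.81-fold higher at 3 DPI. Neither difference was called by edgeR, with a log2 value of -0.68 (SE 0.19; adjusted p = 0.0264) in uninjured and -1.44 (SE 0.26; adjusted p = 0.418) at 3 DPI. The uninjured estimate stayed between -0.81 and -0.49 over 19 alternative settings and became a call in 6 of them, with an adjusted p of 0.0012 by DESeq2, 0.0116 with the replicate block in edgeR and 0.00442 without control replicate 3. At 3 DPI, Des ranked 4 of all genes by unadjusted p (0.000115 in edgeR, 8 libraries). It was called at 3 DPI by DESeq2 (adjusted p = 0.00144), in the edgeR fit of all 16 libraries (0.0113) and without TRF2 MuSC-cKO replicate 3 (log2 value of -1.61; edgeR adjusted p = 0.00273). Its 3 DPI estimate was -1.84 within the shared code and -1.20 among the others, whose codes differ between genotypes.

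With injury, Des fell in both genotypes. The log2 change was -1.22 (SE 0.19; edgeR adjusted p = 1.8e-06) in control and -2.01 (SE 0.27; edgeR adjusted p = 0.000293) in TRF2 MuSC-cKO libraries, and both calls held in all 19 alternative settings. No 3 DPI library overlapped the uninjured libraries of its genotype. The MuSC marker sum was lower in the same groups as Des, and the macrophage sum was higher at 3 DPI. Their part in the Des values was not tested. The antisense gene Gm15179 overlaps 368 bases of Des and held 46 counts against 7343 for Des over the 16 libraries.

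Vim, the filament gene of mesenchymal and activated cells (chr2:13573927-13582826, plus strand, exons of 4743 bases), was at 799, 614, 435 and 769 CPM in uninjured control and at 284, 450, 342 and 426 in uninjured TRF2 MuSC-cKO libraries. Its 3 DPI level was 2795, 3822, 3654 and 4552 CPM in control and 4137, 2195, 1243 and 2550 in TRF2 MuSC-cKO libraries. Every 3 DPI library was above every uninjured library, and the genotypes overlapped in both states. The group means ± SD were 654 ± 167 and 376 ± 76.6 CPM in uninjured and 3706 ± 722 and 2531 ± 1204 CPM in 3 DPI libraries, control first.

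Vim rose 5.66-fold in mean level after injury in control libraries (log2 change of 2.55, SE 0.21; edgeR adjusted p = 1.2e-13) and 6.74-fold in TRF2 MuSC-cKO libraries (2.68, SE 0.33; adjusted p = 0.000152), and both calls held in all 19 alternatives. Between genotypes the log2 difference was -0.67 (SE 0.20; edgeR adjusted p = 0.0374) in uninjured libraries, which was called in 4 of 19 alternatives, among them DESeq2 (adjusted p = 0.00818) and edgeR without control replicate 3 (0.0041). The 3 DPI difference was -0.51 (SE 0.31; edgeR adjusted p = 0.624), and -0.30 without TRF2 MuSC-cKO replicate 3. That 3 DPI estimate was -0.05 within the shared code and -1.10 within the others.

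The macrophage markers moved with Vim. In TRF2 MuSC-cKO libraries at 3 DPI their sums were 6008, 4427, 2279 and 4391 CPM for replicates 1 to 4, lowest in replicate 3, where Vim was also lowest, and highest in replicate 1, where Vim was also highest. Over the 8 libraries at 3 DPI, the correlation of log2 Vim with the log2 macrophage sum was 0.96, a description of libraries that share their preparation, and 0.91 over the 7 without replicate 3, which has the fewest genes detected. With that sum Lmnb1 had a correlation of 0.93 and Synm of -0.92 over the 8 libraries, and 0.66 and -0.68 over the 7. Over all genes, 10.8% were called higher after injury in control and 2.43% in TRF2 MuSC-cKO libraries. Of the 10 macrophage markers, 10 were called higher after injury in control and 9 in TRF2 MuSC-cKO libraries (10 without replicate 3). Between genotypes 7 were tested in uninjured and 10 in 3 DPI libraries. None of these was called by edgeR, DESeq2, limma-voom or robust limma (1 at an unadjusted p under 0.05 in each state). The part of the macrophage markers in the rise of Vim was not tested.

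**Figure D3:**
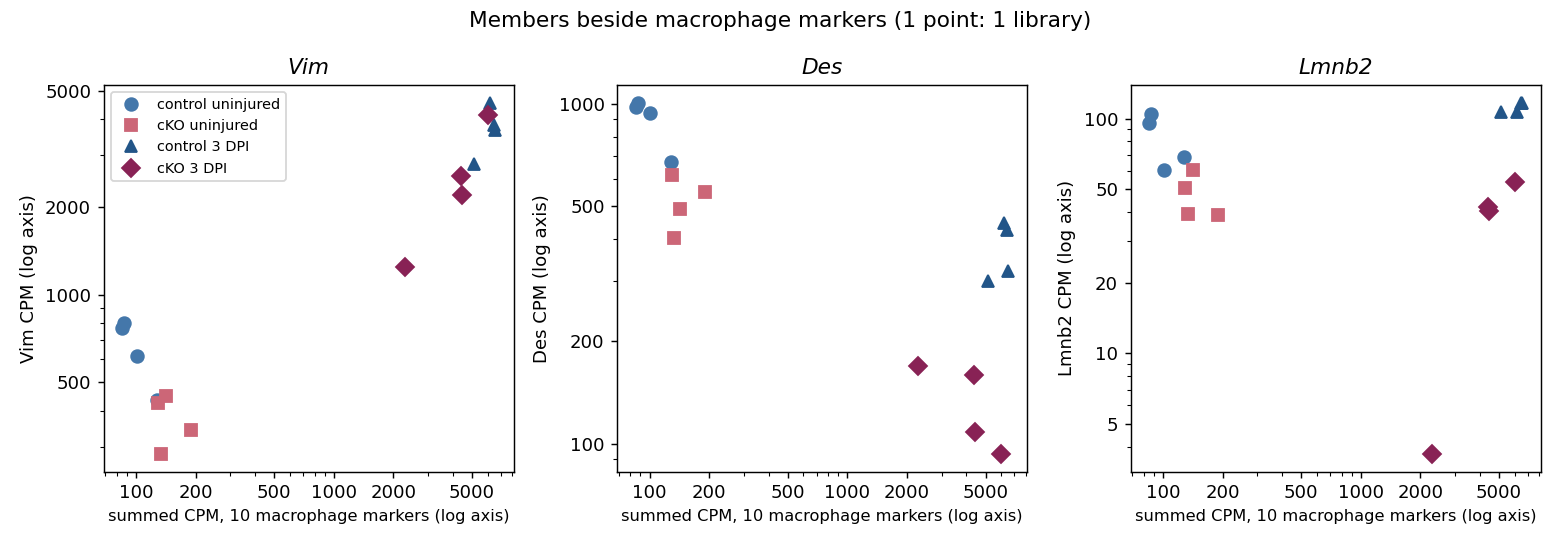
Level of Vim, Des and Lmnb2 in each library against the summed level of 10 macrophage markers, all in CPM on log axes, with 1 point per library. At 3 DPI Vim is highest in the libraries with high marker sums and at 1243 CPM in the one with the lowest sum (2279 CPM), while Des at 3 DPI separates by genotype.

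Nes, which encodes a large filament protein of progenitor cells (chr3:87971078-87980451, plus strand, exons of 6416 bases), was at 255, 190, 107 and 108 CPM in uninjured control and 101, 186, 127 and 147 in uninjured TRF2 MuSC-cKO libraries. The injured libraries held 337, 417, 446 and 571 CPM in control and 199, 194, 267 and 355 in TRF2 MuSC-cKO libraries. The genotypes overlapped in uninjured muscle, and at 3 DPI 3 of the 4 TRF2 MuSC-cKO libraries were below every control library. Nes rose after injury in control libraries (log2 change of 1.46, SE 0.23; edgeR adjusted p = 4.3e-06), with means ± SD of 165 ± 71.5 and 443 ± 97.3 CPM. Its TRF2 MuSC-cKO means were 140 ± 35.7 and 253 ± 75.4 CPM, and although the groups did not overlap the log2 difference of 0.79 (SE 0.28; edgeR adjusted p = 0.141) was not called. Between genotypes the log2 difference was -0.11 (SE 0.23; edgeR adjusted p = 0.831) in uninjured and -0.76 (SE 0.26; adjusted p = 0.459, unadjusted p = 0.0115) in 3 DPI libraries, and the 3 DPI value was -0.93 within the shared code and -0.69 within the others.

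Synm, the partner of desmin and vimentin (chr7:67730160-67759742, minus strand, exons of 7933 bases), was the only one of the 7 genes with positive genotype estimates. It was at 106, 106, 80.7 and 91.6 CPM in uninjured control and 78.1, 162, 125 and 110 in uninjured TRF2 MuSC-cKO libraries. Its values at 3 DPI were 98.1, 67.1, 79.7 and 90.5 in control and 81.8, 83.1, 262 and 154 in TRF2 MuSC-cKO libraries. The groups overlapped in every comparison, and the highest value belongs to TRF2 MuSC-cKO replicate 3 at 3 DPI, the library with fewest genes detected. No comparison was called: the log2 difference between genotypes was 0.43 (SE 0.23; edgeR adjusted p = 0.290) in uninjured and 0.85 (SE 0.38; adjusted p = 0.524) in 3 DPI libraries. Without replicate 3 the 3 DPI value was 0.36. Within the shared code it was 0.01 and within the others, which hold replicate 3, it was 1.31. The injury difference was -0.16 (SE 0.22; edgeR adjusted p = 0.672) in control and 0.24 (SE 0.39; adjusted p = 0.850) in TRF2 MuSC-cKO libraries, and the latter was -0.20 without replicate 3 at 3 DPI. Synm lies inside Ttc23, which is transcribed from the other strand and held 421 counts against 1599 for Synm over the 16 libraries.

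Lmna, the A-type lamin gene (chr3:88480147-88509956, minus strand, exons of 5838 bases), was the most abundant lamin in every group. It was at 495, 324, 352 and 398 CPM in uninjured control and 197, 438, 361 and 403 in uninjured TRF2 MuSC-cKO libraries, so that the genotypes overlapped. The 3 DPI values were 570, 964, 718 and 924 in control and 740, 381, 403 and 716 in TRF2 MuSC-cKO libraries, which overlapped as well. Lmna rose after injury in control libraries, from 392 ± 74.9 to 794 ± 184 CPM (log2 change of 1.06, SE 0.20; edgeR adjusted p = 3.4e-05), and all 4 injured libraries were above the uninjured ones. The TRF2 MuSC-cKO mean was 350 ± 107 CPM before and 560 ± 195 CPM after injury, a log2 difference of 0.61 (edgeR adjusted p = 0.341). The genotype difference was -0.04 (SE 0.21; edgeR adjusted p = 0.930) in uninjured libraries, with a sign that varied between settings, and -0.46 at 3 DPI (-0.45 within the shared code and -0.54 within the others).

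Lmnb1 encodes a B-type lamin that dividing cells make in quantity, and its loss is a widely used mark of senescent cells (chr18:56707813-56753424, plus strand, exons of 2962 bases). It was at 61.6, 58.5, 102 and 38.0 CPM in uninjured control and 30.4, 30.1, 14.3 and 36.8 in uninjured TRF2 MuSC-cKO libraries. The lowest control library was just above the highest TRF2 MuSC-cKO library in this scaling, and the groups overlapped when the 8 libraries were scaled on their own. The mean was 2.33-fold higher in control libraries, the lowest of the 7 uninjured genotype estimates, with a log2 difference of -1.09 (SE 0.33; edgeR adjusted p = 0.0424) that was not called. Over 19 alternatives the value ran from -1.31 to -0.80, and of these only the fit with no filter on low counts (adjusted p = 0.0136) and the looser threshold of 0.05 with no minimum fold change made it a call.

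After injury Lmnb1 was at 106, 132, 114 and 167 CPM in control and 136, 78.0, 32.2 and 118 in TRF2 MuSC-cKO libraries. It rose in control libraries (log2 change of 1.05, SE 0.24; edgeR adjusted p = 0.000877), a call lost in 2 of 19 alternatives, the rescaled table and the fit of all 16 libraries. The TRF2 MuSC-cKO mean was 3.26-fold higher at 3 DPI than before, and the log2 difference of 1.62 (SE 0.46; edgeR adjusted p = 0.0578) was not called, with replicate 3 lowest and inside the uninjured range. Without that replicate the value was 1.93 (edgeR adjusted p = 0.00014), and DESeq2 called the difference with it (adjusted p = 0.0151). The genotype difference at 3 DPI was -0.48, with overlapping libraries, and -0.22 without replicate 3. Within the shared code it was -0.16 and within the others, which hold replicate 3, it was -0.89.

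Lmnb2, the other B-type lamin gene (chr10:80901203-80918245, minus strand, exons of 4286 bases), was at 104, 60.3, 68.6 and 95.5 CPM in uninjured control and 39.1, 60.3, 38.8 and 50.4 in uninjured TRF2 MuSC-cKO libraries. The lowest control and the highest TRF2 MuSC-cKO value are equal at this rounding, and the log2 difference of -0.67 (SE 0.27; edgeR adjusted p = 0.142) was not called. Its 3 DPI values were 107, 117, 117 and 107 in control and 53.7, 40.4, 3.72 and 41.9 in TRF2 MuSC-cKO libraries, with no overlap. The value of 3.72 CPM rests on 3 counts (exact 95% Poisson interval of 0.767 to 10.9 CPM, for counting error only). The mean was 112 ± 5.91 CPM in control and 34.9 ± 21.7 CPM in TRF2 MuSC-cKO libraries, 3.20-fold higher in control.

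The 3 DPI genotype estimate for Lmnb2 was -1.64 (SE 0.50; edgeR adjusted p = 0.452, unadjusted p = 0.0064), and 0.659% of the genes tested had a lower one. It was not called by any tool run: the adjusted p was 0.0219 in robust limma, and without replicate 3 the value was -1.28 (edgeR adjusted p = 0.0414). Within the shared code it was -1.24 and within the others -2.27. Over the 8 libraries at 3 DPI the log2 level of Lmnb2 had a correlation of 0.96 with the log2 macrophage sum, and over all 16 libraries one of -0.01. Without replicate 3, the lowest in both, these were 0.78 over 7 libraries and 0.24 over 15. The part of the macrophage markers in the Lmnb2 values was not tested. Lmnb2 was not called with injury in either genotype, with log2 differences of 0.48 (SE 0.22; edgeR adjusted p = 0.103) in control and -0.50 (adjusted p = 0.765) in TRF2 MuSC-cKO libraries, where it was -0.10 without replicate 3 at 3 DPI. Of 19 alternatives, scaling by library size alone made the control difference a call (log2 value of 0.66; edgeR adjusted p = 0.0145).

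Whether the genotype difference itself differed between uninjured and injured muscle was tested as an interaction over all 16 libraries. None of the 7 genes was called by edgeR, robust limma, limma-voom or DESeq2, and edgeR called 0 genes higher and 3 lower (0% and 0.0178% of 16822 tested, with 966 at an unadjusted p under 0.05). The smallest unadjusted p of the 7 belonged to Des, with a log2 interaction of -0.69 (SE 0.33; edgeR unadjusted p = 0.046, adjusted p = 0.859). The others were -0.87 for Lmnb2, -0.57 for Nes, -0.34 for Lmna, 0.25 for Vim, 0.49 for Synm and 0.69 for Lmnb1. Without TRF2 MuSC-cKO replicate 3 at 3 DPI the Synm value was -0.08. The calls of Nes, Lmna and Lmnb1 in control and not in TRF2 MuSC-cKO libraries after injury therefore do not show that the genotypes responded differently.

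Ratios of counts within a library do not depend on the scaling, and are given as a description with no test. The Vim to Des ratio was below 1 in all 8 uninjured libraries, at 0.793, 0.656, 0.646 and 0.787 in control and 0.706, 0.919, 0.624 and 0.691 in TRF2 MuSC-cKO libraries. In the injured libraries it was at 9.28, 9.01, 11.3 and 10.2 in control and 44.3, 20.2, 7.32 and 16.0 in TRF2 MuSC-cKO libraries. The genotypes overlapped in both states, since replicate 3 lay below the control libraries at 3 DPI and the other TRF2 MuSC-cKO libraries above them. The Lmna to Lmnb1 ratio ran from 3.44 to 10.5 in uninjured control and from 6.46 to 25.2 in uninjured TRF2 MuSC-cKO libraries, and from 5.36 to 7.30 and 4.88 to 12.5 at 3 DPI. The Lmna to Lmnb2 ratio ran from 4.16 to 5.37 and 5.03 to 9.30 in uninjured libraries, control first. At 3 DPI it ran from 5.34 to 8.66 in control and was 13.8, 9.43, 108 and 17.1 in TRF2 MuSC-cKO libraries, each above every control library.

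**Figure D4:**
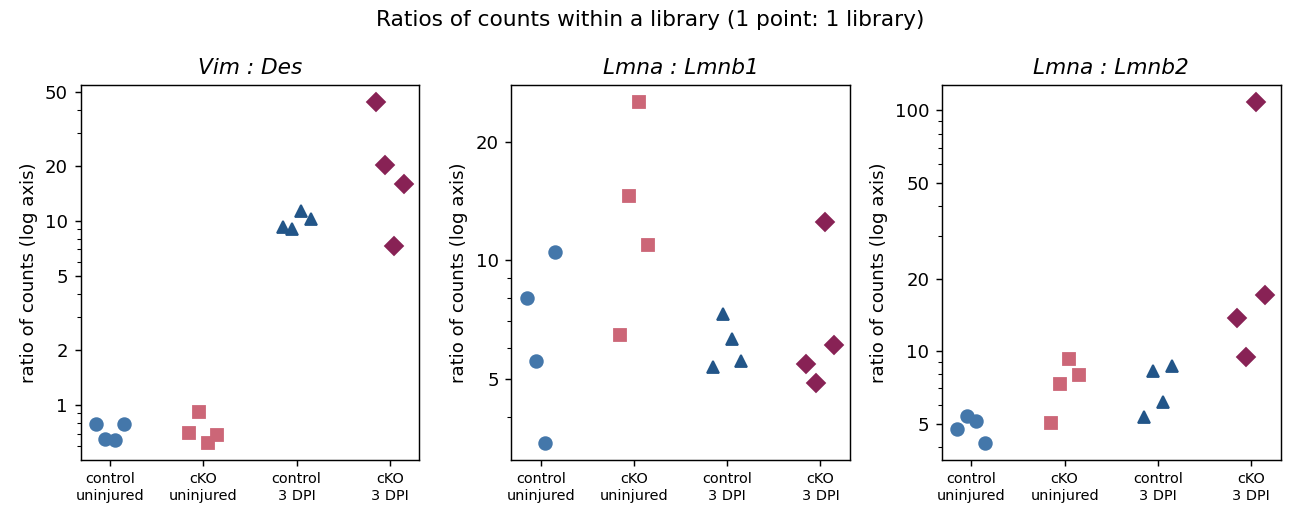
Ratio of counts within each library on log axes for Vim to Des, Lmna to Lmnb1 and Lmna to Lmnb2, with 1 point per library. The Vim to Des ratio is below 1 in all uninjured libraries and at least 7.32 in all 3 DPI libraries, and the Lmna to Lmnb2 ratio at 3 DPI is above 9 in TRF2 MuSC-cKO and below 9 in control libraries.

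Genes that anchor or fold filaments were followed as a list of 18 linkers and chaperones. The list's median log2 difference between uninjured genotypes was 0.09 against 0.06 over all genes. In uninjured TRF2 MuSC-cKO libraries 2 of 18 tested fell, against 2.63% of all genes. They were Flnc, an actin crosslinker of the Z-disc, at 446 ± 56.7 CPM against 1099 ± 265 in control libraries (log2 change of -1.17, SE 0.20; edgeR adjusted p = 0.000108), and Cryab, the desmin chaperone αB-crystallin, at 62.1 ± 19.8 against 162 ± 57.1 (-1.25, SE 0.25; adjusted p = 0.000938). Of 19 alternatives, the call of Flnc was lost in 1, the rescaled table, and that of Cryab in 3, robust limma, the rescaled table and the fit of all 16 libraries. At 3 DPI none of 16 was called by edgeR, 4 had an unadjusted p under 0.05 and DESeq2 called 1.

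After injury in control libraries 6 of 17 linkers and chaperones fell and 1 rose, against 9.46% and 10.8% of all genes (median log2 difference of -0.34 against 0.07 over all genes). The small heat shock protein gene Hspb1 fell from 888 ± 64.7 to 58.9 ± 14.96 CPM, a log2 change of -3.88 (SE 0.22; edgeR adjusted p = 1.6e-18). Its co-chaperone gene Bag3 and the plakin gene Ppl also fell, with log2 changes of -2.09 and -2.07. The gene that rose was Plec, which encodes the linker plectin (log2 change of 0.60, SE 0.19; edgeR adjusted p = 0.014), and that call was lost in 13 of 19 alternatives. In TRF2 MuSC-cKO libraries 3 of 17 fell, against 1.61% of all genes, with log2 changes of -4.42 for Hspb1, -2.23 for Bag3 and -1.30 for Flnc. The call of Flnc was lost in 6 of 19 alternatives and that of Hspb1 in 1 of 18, the rescaled table. Ppl, at -1.35 there (SE 0.35; edgeR adjusted p = 0.0367), was not called, but became a call in 6 of 19 alternatives, with an adjusted p of 0.0031 without TRF2 MuSC-cKO replicate 3 at 3 DPI and 0.00811 by DESeq2. Hspb1 and Bag3 belong to the heat shock response.

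The LINC complex joins the lamina to the cytoskeleton through SUN proteins of the inner and nesprins of the outer nuclear membrane. Of its 6 genes, Sun2 fell in uninjured TRF2 MuSC-cKO libraries, at 114 ± 32.4 CPM against 236 ± 43.5 (log2 change of -0.93, SE 0.21; edgeR adjusted p = 0.00382), a call lost in 7 of 19 alternatives. At 3 DPI 0 of 5 were called between genotypes by edgeR, DESeq2, limma-voom or robust limma, and none had an unadjusted p under 0.05. After injury in control libraries 3 of 6 fell, with log2 changes of -1.54 for Sun1, -1.27 for Syne2, which encodes a nesprin, and -0.99 for Sun2, the last lost in the fit of all 16 libraries. In TRF2 MuSC-cKO libraries 1 of 5 fell after injury, Syne2 with a log2 change of -1.29, lost in 6 of 19 alternatives. The list's medians were -0.13 and -0.14 between genotypes (uninjured, then 3 DPI) and -0.76 and -0.69 with injury (control, then TRF2 MuSC-cKO). Over all genes, 2.63% were called lower between uninjured genotypes, 9.46% with injury in control and 1.61% in TRF2 MuSC-cKO libraries.

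Inner nuclear membrane and lamina partners, such as emerin and the lamin B receptor, gave no call in any comparison by edgeR with TMM scaling and an adjusted p under 0.02, with 12 of 14 genes tested in uninjured genotypes and 13 in the other pairs of groups. Unadjusted p-values under 0.05 numbered 2 in the uninjured genotype comparison, 1 in the control injury comparison and 0 in the others, and DESeq2 called 1 gene lower in uninjured TRF2 MuSC-cKO libraries. After injury in control libraries edgeR called 1 higher with library size alone and 1 with the looser threshold. The 5 enzymes that farnesylate and trim lamins gave no call by edgeR, robust limma, limma-voom or DESeq2, and none had an unadjusted p under 0.05. Of these 5, 4 were tested between genotypes at 3 DPI and all in the other comparisons. Of 27 nuclear pore genes, 25 were tested between uninjured genotypes and 1 fell in TRF2 MuSC-cKO libraries, against 2.63% of all genes. It was Nup54 (log2 change of -1.39, SE 0.37; edgeR adjusted p = 0.0169), a call lost in 11 of 18 alternatives. At 3 DPI 0 of 24 were called between genotypes (4 at an unadjusted p under 0.05, and 0 by DESeq2). After injury in control libraries 2 of 25 nuclear pore genes rose and 1 fell, against 10.8% and 9.46% of all genes. Sec13 and Nup50 rose (log2 changes of 1.23 and 0.98) and Nup210 fell (-1.01), each call lost in 2 to 5 of 19 alternatives. Of the nuclear pore genes, 0 of 24 were called after injury in TRF2 MuSC-cKO libraries by edgeR or DESeq2 and 1 by robust limma, with 1 at an unadjusted p under 0.05.

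Of 19 other filament and filament-related genes, which include keratins, neurofilaments and the plakin gene Eppk1, 16 were tested between genotypes in uninjured libraries and 1 fell. It was Iffo1, which encodes an intermediate filament family protein of the nucleus, at 80.2 ± 40.1 CPM against 216 ± 26.5 in control libraries (log2 change of -1.30, SE 0.24; edgeR adjusted p = 0.000483), a call lost in 3 of 19 alternatives, robust limma, the rescaled table and the fit of all 16 libraries. After injury in control libraries 3 of 17 fell, with log2 changes of -1.21 for Krt10, lost in 9 of 19 alternatives, -1.12 for Iffo1, lost in the fit of all 16 libraries, and -1.08 for Eppk1. None of 16 was called between genotypes at 3 DPI (5 at an unadjusted p under 0.05) and none of 15 after injury in TRF2 MuSC-cKO libraries (1 at an unadjusted p under 0.05), by edgeR, DESeq2, limma-voom or robust limma. The list's median was 0.29 between uninjured genotypes and -0.23 with injury in control libraries, against -0.67 and 1.05 for the 7 genes described here. Over all genes, 2.63% were called lower between uninjured genotypes and 9.46% with injury in control libraries.

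**Figure D5:**
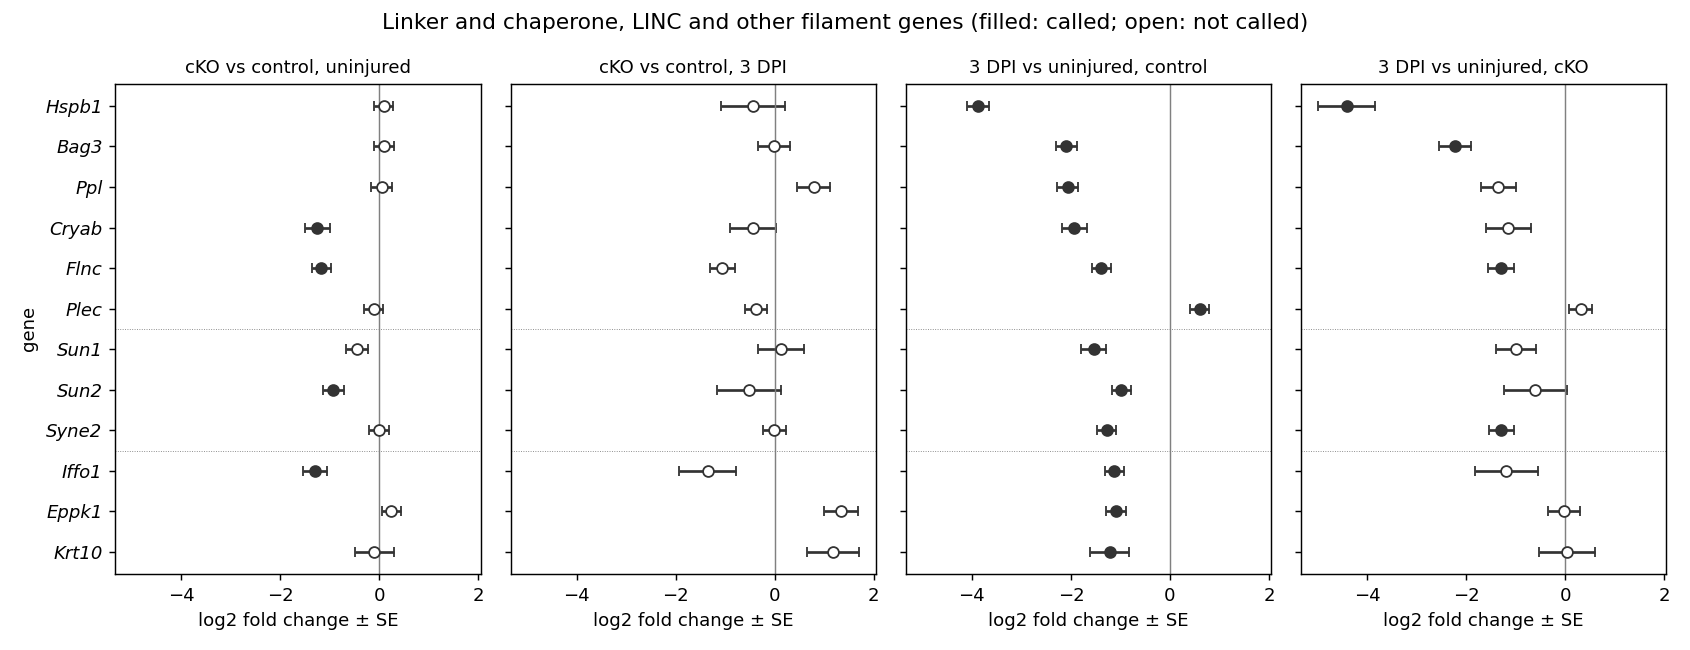
Log2 fold change with its SE for 12 linker and chaperone, LINC complex and other filament genes in 4 comparisons of 4 against 4 libraries, where filled points are called and open points are not. Hspb1 lies at -3.88 and -4.42 in the injury panels, Flnc, Cryab, Sun2 and Iffo1 are filled below 0 in the uninjured genotype panel, and the 3 DPI genotype panel has no filled point.

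Cell cycle genes rose with injury in control libraries. Against 10.8% of all genes, 11 of 12 cycling genes rose after injury in control libraries, led by Top2a (log2 change of 3.33), Ccna2 (3.15) and Mki67 (2.48). Of the same 12 genes, 2 rose in TRF2 MuSC-cKO libraries, Top2a (2.84) and Mki67 (2.37), against 2.43% of all genes. Without replicate 3 at 3 DPI, 3 of the 12 rose. Their summed level ran from 254 to 272 CPM in uninjured control, 237 to 314 in uninjured TRF2 MuSC-cKO, 977 to 1390 in control 3 DPI and 692 to 1057 in TRF2 MuSC-cKO 3 DPI libraries. None of the 12 was called by edgeR between genotypes in either state (2 of 7 tested in uninjured and 2 of 12 at 3 DPI had an unadjusted p under 0.05, and robust limma called 1 in uninjured libraries). Log2 Vim had a correlation of 0.95 with the log2 cycling sum and 0.93 with the log2 macrophage sum over the 16 libraries. These were 0.70 and 0.96 over the 8 libraries at 3 DPI, and 0.92 and 0.91 over the 7 without replicate 3. The part of cycling cells in the Vim, Nes, Lmna and Lmnb1 values was not tested.

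Other cell types that a MuSC sort can hold had markers in all groups as well. The 8 fibroadipogenic markers summed to 4707 to 7461 CPM in uninjured control and 1248 to 2631 in uninjured TRF2 MuSC-cKO libraries, without overlap, and to 3745 to 5802 and 2881 to 5942 at 3 DPI. Most of the sum was Col3a1, a fibrillar collagen gene, which fell from 5313 ± 1316 to 1114 ± 458 CPM between uninjured genotypes (log2 change of -2.12; edgeR adjusted p = 2.9e-08). Of the 6 markers tested there Dpt also fell (-1.65) and Dcn rose (1.20), 4 had an estimate above 0 and the median was 0.47 against 0.06 over all genes, so the sum does not describe the list. Over all genes edgeR called 0.584% higher and 2.63% lower there, and robust limma called 0 of the 6 markers higher and 2 lower. After injury in control libraries 5 of the 8 rose and 2 fell, against 10.8% and 9.46% of all genes, with a median of 1.61 against 0.07 over all genes. Col1a1 rose most (log2 change of 2.05, from 372 ± 133 to 1498 ± 312 CPM), while Col3a1 (-0.76) and Dpt (-2.17) fell. In TRF2 MuSC-cKO libraries Col1a1 alone rose with injury (1.72), against 2.43% of all genes, and 3 of the 8 rose without replicate 3 at 3 DPI. Robust limma called 0 of the 8 in that comparison. Vim rose with injury in both genotypes. The gate is negative for Sca1, the product of Ly6a, which is among these fibroadipogenic markers. The part of fibroadipogenic cells in the rise of Vim was not tested.

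The 8 mural markers ran from 2354 to 3357 and 1957 to 2776 CPM in uninjured and from 863 to 1137 and 938 to 1165 in 3 DPI libraries, control first. Most of the uninjured sum was Notch3, at 1749 ± 501 and 1244 ± 281 CPM, against means of 253 and 180 CPM at 3 DPI. Rgs5 and Cspg4 rose between uninjured genotypes (log2 changes of 1.33 and 0.88) and the median of the 8 was 0.66. Robust limma called 0 of the 8 higher there, limma-voom 1 and DESeq2 2, and edgeR called 0.584% of all genes higher. Schwann cell markers summed to 249 to 318 CPM in uninjured control and 358 to 482 in uninjured TRF2 MuSC-cKO libraries, without overlap, and to 309 to 430 and 387 to 457 at 3 DPI, and 0 of 5 were called between uninjured genotypes by edgeR (2 at an unadjusted p under 0.05). Muscle fiber markers summed to 646 to 763 and 689 to 903 CPM in uninjured and 1063 to 1441 and 885 to 1738 CPM in 3 DPI libraries, control first, and Ttn and Ckm rose after injury in control libraries (1.05 and 1.49). Of the 7 fiber markers tested there, limma-voom and DESeq2 each called 1 higher, and edgeR called 10.8% of all genes higher. Endothelial markers summed to 443 to 664 and 323 to 552 CPM in uninjured and 510 to 708 and 495 to 612 CPM in 3 DPI libraries. After injury in control libraries edgeR called 1 of 8 endothelial markers lower, where robust limma called 0 lower and 1 higher. Of the 8 mural markers, edgeR called 2 lower after injury in control and 1 in TRF2 MuSC-cKO libraries. Over all genes, 9.46% and 1.61% were called lower in these comparisons. No marker of these lists was at 0 in all 4 libraries of a group. Of 9 MuSC markers, edgeR called 6 lower in uninjured TRF2 MuSC-cKO libraries (median of -0.88) and 0 at 3 DPI (-0.59). Robust limma called 2 and 0. After injury edgeR called 8 lower in control and 6 in TRF2 MuSC-cKO libraries. Over all genes, 2.63% and 0% were called lower between genotypes and 9.46% and 1.61% with injury. In uninjured muscle the mean levels of Vim and Des were lower in TRF2 MuSC-cKO libraries, which also had the lower MuSC sum. The part of MuSCs and of these other cells in the values of the 7 genes was not tested.

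The genes whose log2 level was most like that of each of the 7 were found among 12215 genes by Pearson correlation over the 16 libraries, given as a description of libraries that share groups and depth. They were Srebf2, Cdc42ep1 and Dag1 for Des (r of 0.98, 0.97 and 0.95), Fth1, Actb and Lamp1 for Vim (0.99, 0.98 and 0.98) and Cdv3, Glrx and Psmd2 for Nes (0.91, 0.90 and 0.89). For Synm they were Zscan18, Mbd5 and Clrn1 (0.90, 0.90 and 0.89), and for Lmna Fam20c, Tuba1b and Ptpn1 (0.93, 0.92 and 0.92). For Lmnb1 they were Psmd8, Actg1 and Coro1c (0.96, 0.92 and 0.92), and for Lmnb2 Samm50, Mrpl9 and Atp5l (0.97, 0.96 and 0.96). With the 4 group means subtracted, Mbd5 was nearest to Synm (0.97), and the nearest genes of the others were Gm11529 for Des (0.89), Arfip2 for Vim (0.94), Dek for Nes (0.87), Gga3 for Lmna (0.92), Hps4 for Lmnb1 (0.93) and Dohh for Lmnb2 (0.98).

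Among the 7 genes themselves, Vim had correlations of 0.83 with Nes, 0.86 with Lmna and 0.82 with Lmnb1 over the 16 libraries, and of -0.58 with Des. With group means subtracted these were 0.28, 0.75, 0.48 and 0.00. Without replicate 3 at 3 DPI the correlations within groups were 0.45 with Nes, 0.76 with Lmna, 0.07 with Lmnb1 and 0.40 with Des. Synm and Lmnb2 had a correlation of -0.74 over the 16 libraries and -0.64 within groups. Without replicate 3, where Synm was highest and Lmnb2 lowest, these were -0.36 and 0.17, so the relation within groups rests on that library.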

How the data were processed

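Stranded CORALL libraries were made from ribosome-depleted RNA of sorted MuSCs. According to the methods and processing notes the authors trimmed reads with Trim Galore 0.6.7, aligned them with STAR 2.6.1d (the methods give another version) to Ensembl GRCm38, quantified them with Salmon 1.5.2 and deposited estimated counts per gene, not normalized. A second deposited table holds estimated counts rescaled from transcript abundance and was used only as an alternative. Whether molecular identifiers were collapsed, and the annotation release, are not given in the sources used here. Uncollapsed reads would make counting intervals too narrow.

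Groups and replicate numbers came from the sample titles. The estimated counts were rounded, filtered with filterByExpr, scaled by TMM and tested over all genes of the 8 libraries compared (16 for the interaction) by edgeR 4.0.16 in R 4.3.3 (robust quasi-likelihood fits). Calls needed a Benjamini-Hochberg adjusted p under 0.02 together with a fold change over 1.5. Exon lengths, positions and overlaps came from GENCODE M21 on GRCm38, to which 23376 of 24411 genes (95.8%) matched by symbol, and promoters from RefSeq GRCm38.p6. Levels and their correlations used Python 3.11.15, pandas 2.3.3 and scipy 1.17.1, and figures matplotlib 3.10.9. All 7 genes are described in every comparison. Of the filament, lamina, LINC, nuclear pore and cycling lists, up to the 3 called genes with the largest change per list, comparison and direction were named. Of the cell type markers, not every called or abundant gene was named, so one that is not named may have been called. For each of the 7, the 3 most correlated genes whose log2 CPM averaged at least 4 were named. The 7 genes and the lists were chosen with earlier results of these data known.

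Same-numbered replicates did not deviate together: the correlation of their deviations from group means ran from -0.10 to 0.12 over the 4 comparisons, so the main fit has no replicate block. No 2 libraries of the same group agreed within sampling noise. The fits were tested on simulated data. Alternatives were limma 3.58.1 (robust fit and voom), DESeq2 1.42.0, other size factors, other filters, the rescaled table, 1 fit of all libraries, a replicate block, leaving out each library, a looser threshold and, at 3 DPI, the label code.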

Additional observations from a re-analysis of the deposited data

Results flagged for a closer look

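In each of 100 sets of 4 libraries, the highest and lowest library were compared with the rest of their group, and chance alone sets 1 in about 20 such sets apart. TRF2 MuSC-cKO replicate 3 at 3 DPI stood apart in 4 of the 8 sets found. Its Lmna to Lmnb1 ratio of counts was 12.5 against 4.88 to 6.09 in the other 3 libraries, and its Lmna to Lmnb2 ratio was 108 against 9.43 to 17.1. Its summed level of filament linkers and chaperones was 2945 CPM against 4296 to 4469, and that of lamina partners 1249 CPM against 679 to 751.

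The other sets were the summed level of other filament genes in control replicate 3 at 3 DPI (624 CPM against 521 to 534), that of LINC complex genes in control replicate 4 at 3 DPI (945 CPM against 789 to 807), that of cycling genes in uninjured TRF2 MuSC-cKO replicate 2 (314 CPM against 237 to 243) and that of Schwann cell markers in uninjured control replicate 4 (249 CPM against 313 to 318). The level of none of the 7 genes stood apart in this way in any group.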

How the results depend on the processing

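Of 725 alternative estimates of the 7 genes, 692 kept their direction and call, 20 gained a call, 2 lost one and 11 changed sign. The sign changed for Nes in uninjured genotypes with library size alone (0.0667) and when libraries were left out (-0.31 to 0.15), and for Lmna there with robust limma (0.0378), library size alone (0.13), at least 10 counts in every library (0.0270) and libraries left out (-0.18 to 0.13). It also changed for Synm with injury in control libraries with library size alone (0.00576), with injury in TRF2 MuSC-cKO libraries (-0.20 to 0.46, below 0 without TRF2 MuSC-cKO replicate 3 at 3 DPI) and in the interaction (-0.0801 to 0.68, below 0 without the same library), and for Vim in the interaction (-0.0877 to 0.42, below 0 without TRF2 MuSC-cKO replicate 1 at 3 DPI). The cause was not tested. Leaving TRF2 MuSC-cKO replicate 3 at 3 DPI out of the correlations was chosen after seeing the data.

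The count of the 7 genes called lower in uninjured TRF2 MuSC-cKO libraries was 1 with limma-voom and with the replicate block, 2 with DESeq2, 3 with no filter and at an adjusted p under 0.05 with no minimum fold change, and 0 to 2 with libraries left out (2 without control replicate 3). Of all 14048 genes, limma-voom called 367 lower, the replicate block 448, DESeq2 509 and the looser threshold 529. With no filter 503 of 23510 were called lower, and without control replicate 3 488 of 15256. At 3 DPI the count of the 7 called lower was 1 with DESeq2 and with all 16 libraries in 1 fit, and 0 to 1 with libraries left out (1 without TRF2 MuSC-cKO replicate 3). Over all genes DESeq2 called 17 lower, the fit of all 16 libraries 3 and the fit without that replicate 13. The count of the 7 called higher after injury in TRF2 MuSC-cKO libraries was 2 with DESeq2, at least 10 counts and all 16 libraries, and 1 to 2 with libraries left out. Over all genes these settings called 568 of 14578, 445 of 6685 and 721 of 16822 higher. Without TRF2 MuSC-cKO replicate 3 at 3 DPI, where the count of the 7 was 2, 803 of 15547 were called higher.

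Over all genes, the 452 uninjured genotype calls became 299 (robust limma), 17 (rescaled table), 82 (all 16 libraries), 711 (adjusted p under 0.05) and 259 to 574 (libraries left out). The 0 calls at 3 DPI became 28 (robust limma), 22 (DESeq2), 3 (all 16), 1 (shared code only) and 0 to 16 (libraries left out). The 3104 control injury calls became 1595 (all 16) and 2618 to 3344 (libraries left out). The 589 TRF2 MuSC-cKO injury calls became 1020 (robust limma), 993 (DESeq2), 283 (rescaled table), 1204 (all 16), 364 (replicate block) and 358 to 1316 (libraries left out). The 3 interaction calls became 123 (robust limma), 1 (limma-voom), 24 (DESeq2), 8 (at least 10 counts), 1 (rescaled table), 1 (replicate block) and 1 to 13 (libraries left out). With the replicate block the Des difference between uninjured genotypes, -0.68, became a call, and no other of the 7 genes changed its call. Between uninjured genotypes 3 of the 4 libraries of 1 group correlated best with their own replicate number (same-number correlations of -0.09 to 0.12, others of -0.11 to 0.10), against 0 of 4 in the other comparisons. With library size alone the Lmnb2 difference with injury in control libraries became a call (0.66). Library size alone moved the uninjured split from 82 higher and 370 lower to 176 and 212, with the median of all genes at 0.24 in place of 0.06, and the control injury split from 1652 and 1452 to 1989 and 1066, with the median at 0.23 in place of 0.07. Lmnb2 could not be fitted with at least 10 counts in every library where TRF2 MuSC-cKO replicate 3 at 3 DPI enters, since it holds 3 counts there. Of the 28 group means, 13 moved by more than 1 SD with the rescaled table and 1 with library size alone.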
